A study of Homo sapiens with 31 samples.

Results

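The cytosolic and mitochondrial heat shock proteins examined here were 10 genes, HSPA8, HSP90AA1, HSP90AB1, HSPA4, HSPH1, DNAJA1, DNAJB1, HSPD1, HSPE1 and HSPA9, among the 30667 genes of the table. They were picked by name as one protein family, and the family was selected because HSPA8 was higher with SFFV/sh-XIAP. The values behind that choice are those of days 10 and 13, and the differences of the 10 genes between SFFV/sh-XIAP and the other constructs at those days are given as a description, without p-values. Where a count of calls in these comparisons is printed, nothing is read from it. All 10 genes were found in the table under 1 identifier each.

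All samples were of NALM-6, an established line of B-cell precursor acute lymphoblastic leukemia, and all carried a lentiviral construct. EF1a/sh-CTRL, EF1a/sh-XIAP, SFFV/sh-CTRL and SFFV/sh-XIAP each express a short hairpin RNA, built into a miR30 backbone behind the red marker dsRED, from the moderate EF1a or the strong SFFV promoter. The hairpin of the sh-XIAP constructs targets XIAP, an inhibitor of caspases, and control and sh-XIAP cells also differed in a second marker, mTagBFP against eGFP, so hairpin and marker cannot be told apart. Cells were taken 4, 10 and 13 days after transduction, in 2 or 3 samples for each construct and day and 31 in all. Some groups lack a replicate number, and the study left out samples as outliers by principal component analysis. Whether these are the missing ones is not stated, so the spread within groups may be that of samples already screened. The sample labels have the cells kept in culture, whereas the design text of the series has them recovered from murine bone marrow. Nothing says that samples of a group were separate cultures, so p-values measure only the spread between these samples, which may be technical.

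Heat shock proteins are chaperones that bind unfolded protein and help it to fold, and many are made in every growing cell without any stress. In the cytosol J-domain proteins such as DNAJA1 and DNAJB1 hand clients to HSP70, HSP110 proteins release ADP from HSP70, and HSP90 takes over late folding steps of kinases and hormone receptors. In mitochondria HSPA9 pulls imported chains through the membrane, and the barrel of HSPD1, closed by its lid HSPE1, folds them.

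UMIs, unique molecular identifiers that count each captured molecule once, totalled 312852 to 1153668 per sample with a median of 603822, and counts are given scaled to the total of the sample as counts-per-million (CPM). The late SFFV/sh-XIAP libraries were deeper, at 312852 to 1148669 UMIs with a median of 708867, than those of SFFV/sh-CTRL, at 351081 to 520334 with a median of 464457. XIAP itself was counted with 2 to 14 UMIs per sample. Its mean over days 10 and 13 was 8.86 ± 3.06 CPM (SD) in the 6 SFFV/sh-XIAP samples against 10.2 ± 4.72 in the 4 of SFFV/sh-CTRL, and 9.62 ± 1.45 in the 5 of EF1a/sh-XIAP against 10.8 ± 4.67 in the 6 of EF1a/sh-CTRL. The groups overlapped, so these few UMIs showed no clear fall of XIAP RNA, and the difference was not tested. The study measured its knockdown as protein, which RNA counts do not give. All 10 B-cell precursor markers were found, with a summed level of 3556 to 4126 CPM, against 14 T-cell, 121 myeloid and 27 erythroid marker UMIs over all samples. In the T-cell list CD3D and CD3E, and in the erythroid list HBA1 and HBA2, were not analysed here.

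**Figure D1:**
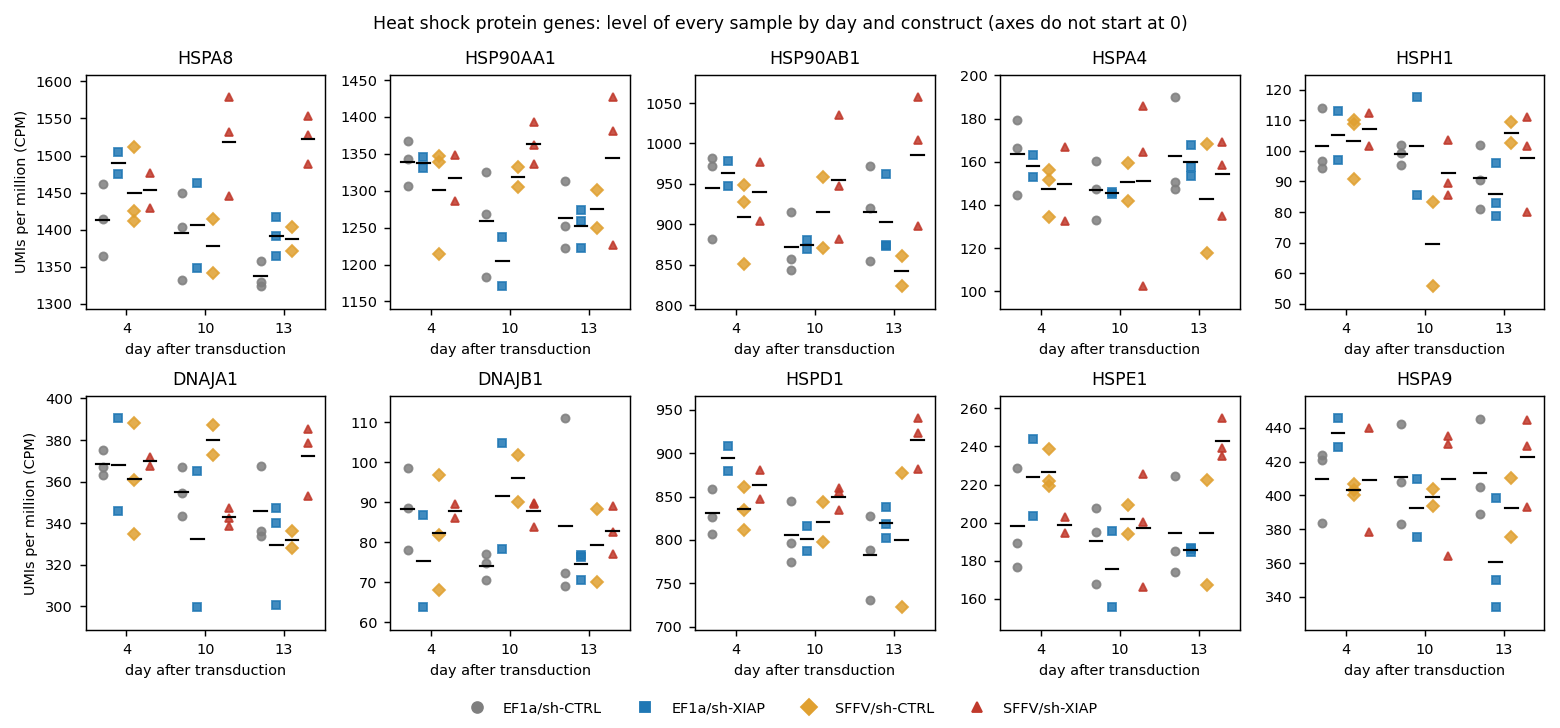
Level of the 10 heat shock protein genes in CPM (vertical axes, which do not start at 0) in each of the 31 samples by day after transduction (horizontal axes), with the construct given by colour and symbol and the mean of each group as a bar. The 6 late SFFV/sh-XIAP samples sit at 1445 to 1579 CPM for HSPA8, above the 1342 to 1414 CPM of SFFV/sh-CTRL. For the other genes these groups overlap when days 10 and 13 are pooled. Within a day some are apart, HSPE1 at day 13 and DNAJA1 at day 10 (lower) and day 13 (higher) among them.

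HSPA8 (ENSG00000109971, chr11:123057489-123063230, minus strand, GRCh38) encodes the constitutive HSP70 of the cytosol and gave 29581 UMIs over all samples. At day 4 its level was 1415, 1365 and 1461 CPM with EF1a/sh-CTRL, 1505 and 1475 with EF1a/sh-XIAP, 1426, 1511 and 1412 with SFFV/sh-CTRL and 1477 and 1429 with SFFV/sh-XIAP. SFFV/sh-XIAP at day 4 thus lay within the range of its own control. At day 10 the levels were 1449.7, 1403 and 1332 CPM with EF1a/sh-CTRL, 1463 and 1349 with EF1a/sh-XIAP, 1342 and 1414 with SFFV/sh-CTRL, and 1579, 1445 and 1532 with SFFV/sh-XIAP. At day 13 they were 1358, 1329.6 and 1324 CPM with EF1a/sh-CTRL, 1418, 1392 and 1364 with EF1a/sh-XIAP, 1404 and 1372 with SFFV/sh-CTRL, and 1553, 1527 and 1489 with SFFV/sh-XIAP. In bulk RNA a smaller number of cells with the transcript and less of it per cell cannot be told apart. Over both late days the 6 SFFV/sh-XIAP samples were all above the 4 SFFV/sh-CTRL samples, and 5 of the 6 were above all 15 samples of the other constructs. The sixth, day 10 replicate 2, had the shallowest library of the series and lay below 2 EF1a samples. Of the 17683 genes tested, 0.735% were likewise higher in every late SFFV/sh-XIAP sample than in any SFFV/sh-CTRL sample, and HSPA8 was the only one of the 10. The share of genes with 5 of 6 above all 15 others was not counted, and these are values of the choice. Ordered by mean, the 12 groups of construct and day ran from 1523 CPM (SFFV/sh-XIAP, day 13) to 1337 CPM (EF1a/sh-CTRL, day 13), and no neighbours in that order were apart in their ranges. Within groups HSPA8 varied as counting alone would have it, with a variance of 0.801 times the Poisson variance, against a median of 1.17 over genes of at least 100 CPM.

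The cytosolic HSP90 pair followed with wider ranges. HSP90AA1 (ENSG00000080824, chr14:102080738-102139699, minus strand), the more inducible HSP90, gave 26905 UMIs. In late SFFV/sh-XIAP samples it was counted at 1393, 1362 and 1336 CPM at day 10 and 1427, 1381 and 1227 at day 13, and 5 of the 6 were above all 15 other late samples, which ran from 1171 to 1332. The exception, day 13 replicate 3, lay below 11 of the 15. How many of all genes had such a separation was not counted, and nothing is read from it. HSP90AB1 (ENSG00000096384, chr6:44246166-44253888, plus strand), the constitutive HSP90, gave 19165 UMIs and stood at 948, 882 and 1035 CPM at day 10 and 1004, 1057 and 897 at day 13 with SFFV/sh-XIAP. SFFV/sh-CTRL had 959, 871, 823 and 860.3 CPM over the same days, so 3 SFFV/sh-XIAP samples lay within the control range. At day 13 alone all SFFV/sh-XIAP samples were above those of SFFV/sh-CTRL. The share of all genes with such a separation was not counted. Relative to counting noise, HSP90AB1 varied most of the 10 within groups, at 1.97 times the Poisson variance.

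The HSP110 proteins HSPA4 and HSPH1 and the J-domain proteins DNAJA1 and DNAJB1 were counted less and did not separate SFFV/sh-XIAP from its control. HSPA4 (ENSG00000170606, chr5:133051962-133106449, plus strand) ranged from 102 to 186 CPM in late SFFV/sh-XIAP samples and from 118 to 168 with SFFV/sh-CTRL. HSPH1 (ENSG00000120694, chr13:31134974-31162388, minus strand) ranged from 80.1 to 111 CPM and from 55.7 to 109, with the lowest value of the series in SFFV/sh-CTRL day 10 replicate 2. Counting error alone gave HSPH1 a coefficient of variation of 9.17% in its best sample and 19.2% in its poorest. DNAJA1 (ENSG00000086061, chr9:33025211-33039907, plus strand) had 339 to 385 CPM with late SFFV/sh-XIAP and 328 to 387 with SFFV/sh-CTRL. DNAJB1 (ENSG00000132002, chr19:14514770-14529770, minus strand), the J-domain protein most strongly induced by heat, had 77.1 to 89.7 CPM and 70.1 to 102 CPM. With days 10 and 13 pooled, SFFV/sh-XIAP and SFFV/sh-CTRL overlapped for each of these 4 genes. Within a day some were apart. DNAJA1 had 339 to 347 CPM against 373 to 387 with SFFV/sh-CTRL at day 10, and 353 to 385 against 328 to 336 at day 13. At day 10 DNAJB1 had 83.9 to 89.7 CPM against 90.0 to 102, and HSPH1 85.7 to 104 against 55.7 to 83.3. How many of all genes were apart within a day was not counted, so nothing is read from it.

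Among the mitochondrial members HSPD1 (ENSG00000144381, chr2:197486581-197516737, minus strand) gave 17280 UMIs. It stood at 855, 834 and 860.1 CPM at day 10 and 923, 882 and 940.2 at day 13 with SFFV/sh-XIAP, against 844, 798, 877 and 722 with SFFV/sh-CTRL. The 3 samples of day 13 were above all 15 other late samples, and those of day 10 were not. These are values of the choice, and the share of all genes with such a separation was not counted. HSPE1 (ENSG00000115541, chr2:197499994-197503457, plus strand) is transcribed away from HSPD1 and overlaps it on the other strand, and whether the counting used strand is not stated. It had 201, 166 and 225 CPM at day 10 and 255, 235 and 239 at day 13 with SFFV/sh-XIAP. SFFV/sh-CTRL had 209, 194, 222 and 167 CPM, so the samples of day 10 overlapped the control and those of day 13 did not. For this separation too no share of all genes was counted. HSPA9 (ENSG00000113013, chr5:138553756-138575724, minus strand) ranged from 364 to 445 CPM with late SFFV/sh-XIAP and from 375 to 410.2 with SFFV/sh-CTRL, with overlap. Summed over the 10 genes, the 6 late SFFV/sh-XIAP samples averaged 6055 ± 226 CPM (SD), the 4 of SFFV/sh-CTRL 5641 ± 181, the 6 of EF1a/sh-CTRL 5598 ± 137 and the 5 of EF1a/sh-XIAP 5548 ± 46.3. At day 4 the sum averaged 5897 ± 171 CPM in 2 SFFV/sh-XIAP samples and 5819 ± 126 in 3 SFFV/sh-CTRL samples.

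In the comparison that served for the choice, SFFV/sh-XIAP minus SFFV/sh-CTRL at days 10 and 13, limma-voom gave HSPA8 a log2 difference of 0.13 (SE 0.029), a fold of 1.10. HSP90AB1 was at 0.16 (SE 0.049), HSPD1 at 0.13 (SE 0.047), HSPE1 at 0.20 (SE 0.10) and HSPH1 at 0.18 (SE 0.16). HSPA4 (0.09), HSPA9 (0.09) and HSP90AA1 (0.05) were smaller, and DNAJA1 and DNAJB1 were at -0.01 and -0.06, both within 1 SE of 0. Their sign was not stable: DNAJA1 was at 0.01 with no TMM or with pseudogene UMIs added, 0.03 with no filter and 0.16 at day 13 alone, and DNAJB1 was at 0.00065 with the depth covariate and 0.08 at day 13 alone. HSPH1 was at -0.02 without SFFV/sh-CTRL day 10 replicate 2, the library with its lowest level. In all, 8 of the 10 had a positive difference, with a median of 0.11 against -0.017 over all genes tested. At the study's adjusted p of at most 0.25, 0.0792% of the genes tested were called, 14 in all and HSPA8 with them, which the choice of HSPA8 for this difference had fixed in advance. Against the mean of the other constructs all 10 differences were positive, with a median of 0.10 and a range from 0.04 (HSPA4) to 0.26 (HSPE1), and 0.843% of genes and 5 of the 10 were called. Both comparisons rest on the samples of the choice and share the late SFFV/sh-XIAP samples.

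The late SFFV/sh-XIAP libraries were the deeper ones, so the same differences were taken with log2 total UMIs as a covariate. HSPA8 then stood at 0.13 (SE 0.033), and after all libraries had been thinned to 312852 UMIs at 0.11 (SE 0.037). Thinning put HSPA4 at -0.04 (SE 0.15) and HSPA9 at -0.01 (SE 0.077). For HSPA8 the difference was 0.16 (SE 0.047) at day 10 alone and 0.15 (SE 0.044) at day 13 alone. Between these days HSPH1 went from 0.52 (SE 0.22) to -0.15 (SE 0.19) and DNAJA1 from -0.13 (SE 0.10) to 0.16 (SE 0.10). The scaling moved HSPA8 from 0.11 with DESeq2 size factors to 0.15 with no TMM. HSPE1 reached 0.37 (SE 0.14), HSP90AB1 0.24 (SE 0.070) and HSPD1 0.23 (SE 0.072) at day 13 alone.

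**Figure D2:**
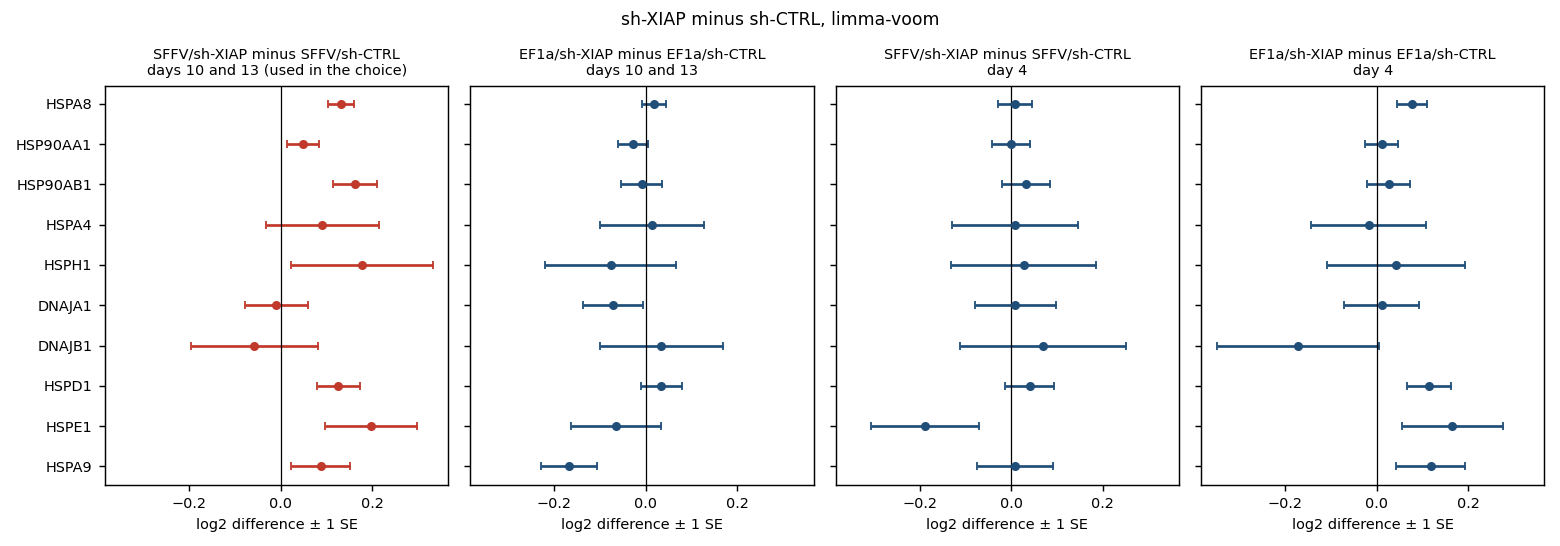
Log2 difference of sh-XIAP minus sh-CTRL (horizontal axes) with 1 standard error for the 10 genes (vertical axis), by promoter and by day, from limma-voom. At days 10 and 13 the SFFV panel, which served for the choice, has HSPA8 at 0.13 and 8 of 10 genes above 0, and the other panels have HSPA8 at 0.02, 0.01 and 0.08.

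**Figure D3:**
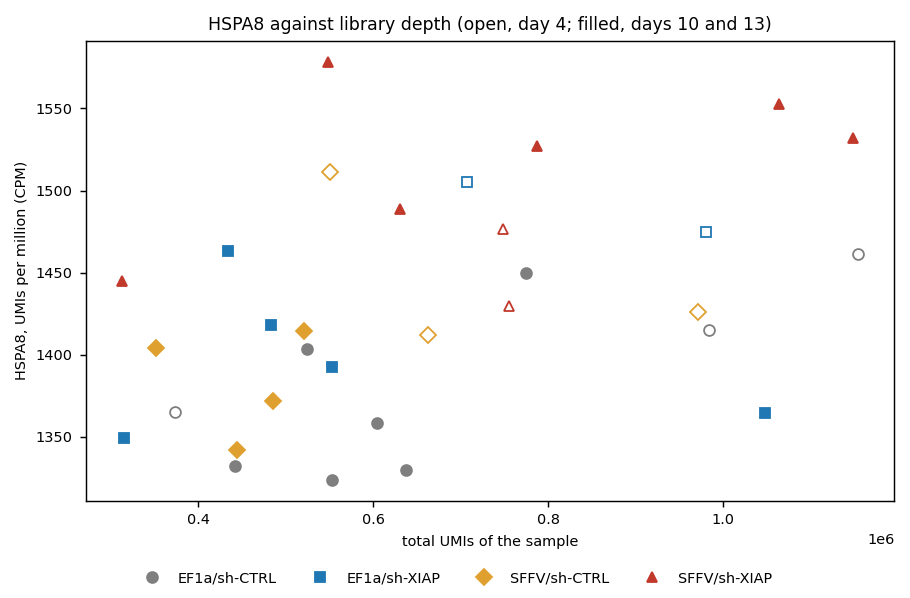
HSPA8 in CPM (vertical axis, not starting at 0) against the total UMIs of each of the 31 samples (horizontal axis), with open symbols for day 4 and filled symbols for days 10 and 13. The filled SFFV/sh-XIAP triangles lie at 1445 to 1579 CPM over totals from 312852 to 1148669 UMIs, with the shallowest library the lowest of them.

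The late samples of the moderate construct ask how the 10 genes stood under the weaker promoter. For EF1a/sh-XIAP minus EF1a/sh-CTRL at days 10 and 13 HSPA8 differed by 0.02 (95% interval -0.04 to 0.07), with 1349 to 1463 CPM in 5 samples and 1324 to 1449.7 in 6. HSPE1 was at -0.06, HSP90AB1 at -0.0090, HSPD1 at 0.03 and HSP90AA1 at -0.03. None of the 10 was called by limma-voom, edgeR, DESeq2 or limma-trend, where 0.0170% of all genes tested were called by limma-voom. The 1 member with an unadjusted p under 0.05 was HSPA9, at -0.17 (95% interval -0.29 to -0.04, unadjusted p = 0.0093 and adjusted p = 0.99 by limma-voom). HSPA9 stood at 376, 409, 334, 398 and 350.2 CPM with EF1a/sh-XIAP and at 383 to 445 with EF1a/sh-CTRL, so the groups overlapped in 2 samples. Its difference was -0.07 (SE 0.11) at day 10 and -0.22 (SE 0.081) at day 13.

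At day 4, in samples that played no part in the choice, SFFV/sh-XIAP differed from SFFV/sh-CTRL by -0.19 to 0.07 over the 10 genes. HSPA8 differed by 0.0074 (95% interval -0.07 to 0.08). HSP90AB1 was at 0.03 (-0.07 to 0.14), HSPD1 at 0.04 (-0.07 to 0.15) and HSPE1 at -0.19 (-0.42 to 0.05). None of the 10 was called by any of these 4 tools and none had an unadjusted p under 0.05 with limma-voom, with 0.0109% of all genes called. With EF1a/sh-XIAP at day 4 HSPA8 stood at 1505 and 1475 CPM, above the 3 EF1a/sh-CTRL samples at 1365 to 1461, and HSPD1 at 908 and 879.7 against 807 to 858. The log2 differences were 0.08 (95% interval 0.01 to 0.14) and 0.11 (0.02 to 0.21), both with an unadjusted p under 0.05 and an adjusted p of 0.98 by limma-voom, so neither passed the test. How many of all genes had both samples above all 3 controls was not counted, so nothing is read from the separation. Again none of the 10 was called by the 4 tools, against 0.0491% of all genes. The effect of sh-XIAP at day 4 was not shown to differ between the promoters for any of the 10 genes (limma-voom interaction, lowest unadjusted p = 0.032 for HSPE1, adjusted p = 0.998).

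Time after transduction was compared over all constructs, and the 10 genes shared a direction. For days 10 and 13 minus day 4 all 10 had a negative log2 difference, from -0.04 (HSPA8) to -0.20 (HSPH1), with a median of -0.06 against -0.0015 over all genes and -0.015 over those of at least 100 CPM. HSP90AA1 was at -0.06 (SE 0.021), HSP90AB1 at -0.07 (SE 0.028), HSPD1 at -0.07 (SE 0.026) and DNAJA1 at -0.08 (SE 0.037). Including HSPA8 and HSPH1, 6 had an unadjusted p under 0.05, as did 6.36% of all genes, but none was called by limma-voom, edgeR, DESeq2 or limma-trend, with 0.475% of all genes called by limma-voom. This comparison also holds the late SFFV/sh-XIAP samples of the choice and the late samples they were set against. Nothing is therefore read from the shared direction or from these p-values. By construct, 9 of the 10 had a lower late mean with each of EF1a/sh-CTRL, EF1a/sh-XIAP and SFFV/sh-CTRL. With SFFV/sh-XIAP it was 3 of the 10, HSPH1, DNAJA1 and DNAJB1, a count that follows from late values on which the choice was made, and the difference in time change between the constructs was not tested. HSPA8 went from a mean of 1414 to 1366 CPM with EF1a/sh-CTRL, from 1489.95 to 1397 with EF1a/sh-XIAP and from 1449.7 to 1383 with SFFV/sh-CTRL, and from 1453 to 1521 with SFFV/sh-XIAP. HSPE1 went from 227 to 198 CPM with SFFV/sh-CTRL and from 199 to 220.2 with SFFV/sh-XIAP.

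After these values had been seen, the time comparison was repeated with the 8 SFFV/sh-XIAP samples left out. The late samples that remain are those SFFV/sh-XIAP was set against in the choice, so a low late level was partly built in, and the values are a description without a test. In these 23 samples HSP90AB1 was at -0.11 (SE 0.028), HSP90AA1 at -0.09 (SE 0.020) and HSPA8 at -0.07 (SE 0.018). The other 7 had negative differences too, HSPE1 at -0.20 (SE 0.064) and HSPD1 at -0.09 (SE 0.028) among them, and the median of the 10 was -0.08. With log2 total UMIs as a covariate HSPA8 was at -0.09, HSP90AA1 at -0.08, HSP90AB1 at -0.12 and HSPD1 at -0.11. Past the threshold were 3 of the 10 by limma-voom and 0.533% of all 17839 genes, or 4 of the 10 and 1.03% with the covariate, and nothing is read from these counts. They also changed with the tool, since edgeR and DESeq2 each had 1 of the 10, HSPE1, and with the samples, since HSPA8 was past it in 17 of the 23 fits that left out 1 sample. Without EF1a/sh-CTRL day 4 replicate 3 neither HSPA8 (-0.06) nor HSP90AA1 (-0.08) was past it. For HSPA8 the same held without EF1a/sh-CTRL day 10 replicates 2 and 3, SFFV/sh-CTRL day 10 replicate 1, EF1a/sh-XIAP day 10 replicate 2 and EF1a/sh-XIAP day 13 replicate 3, at -0.06 to -0.07.

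**Figure D4:**
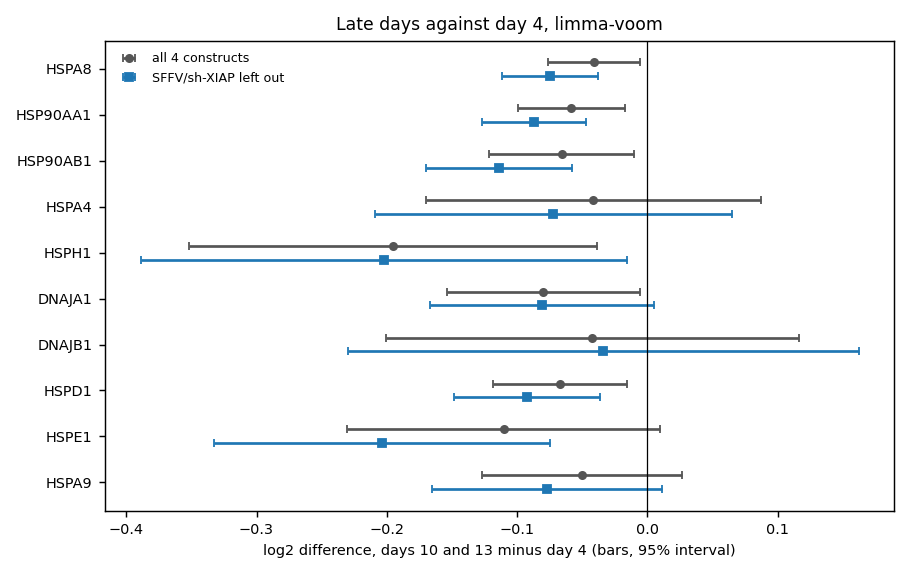
Log2 difference of days 10 and 13 minus day 4 (horizontal axis) with the 95% interval for the 10 genes (vertical axis), over all 31 samples (circles) and with the 8 SFFV/sh-XIAP samples left out (squares), from limma-voom. All points lie below 0, and for HSPA8 the difference goes from -0.04 to -0.07 once SFFV/sh-XIAP is left out.

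Between day 13 and day 10 the differences were small, from -0.06 (DNAJB1) to 0.11 (HSPE1) with a median of 0.03, and none of the 10 was called by the 4 tools or had an unadjusted p under 0.05 by limma-voom, with 0.0226% of all genes called. The slope per doubling of total UMIs was fitted with construct and day as additive terms, which leave in a level particular to a construct at the late days. The fit holds the late SFFV/sh-XIAP samples of the choice, which were deeper, so nothing is read from its p-values. HSPA8 was higher by 0.02 (SE 0.018) per doubling. HSP90AB1 was higher by 0.06 (SE 0.026) and HSPE1 by 0.12 (SE 0.059), both with an unadjusted p under 0.05, and none of the 10 was called by any of the 4 tools where 1.78% of all genes were. With SFFV/sh-XIAP left out these slopes were -0.02 for HSPA8, -0.01 for HSP90AB1 and 0.01 for HSPE1.

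Several of these genes have processed pseudogenes, copies of the spliced RNA elsewhere in the genome that can take part of their reads. UMIs assigned to annotated pseudogenes made up 43.1% of all UMIs of HSPE1 and its copies, from 30.6% to 57.1% per sample, with HSPE1P2, HSPE1P4 and HSPE1P25 counted most. The share was 14.6% for HSPD1, 6.67% for HSPA8, 6.40% for HSP90AA1 and 5.82% for HSP90AB1, 2.18% for DNAJA1 and 0.676% for HSPA9. DNAJB1 had 1 such UMI, and no annotated pseudogene of HSPA4 or HSPH1 was found in the table. How much of the RNA of HSPE1 was assigned to its copies was not tested, and its level is uncertain. Its pseudogenes summed to 190.1 ± 49.2 CPM (SD, n = 6) with late SFFV/sh-XIAP, 138 ± 38.7 (n = 4) with SFFV/sh-CTRL, 104 ± 19.2 (n = 5) with EF1a/sh-XIAP and 120.5 ± 32.7 (n = 6) with EF1a/sh-CTRL. With these UMIs added to the gene, HSPE1 in late SFFV/sh-XIAP stood 0.46 (SE 0.070) above the mean of the other constructs in place of 0.26, while HSPA8 stood at 0.15 in place of 0.14.

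**Figure D5:**
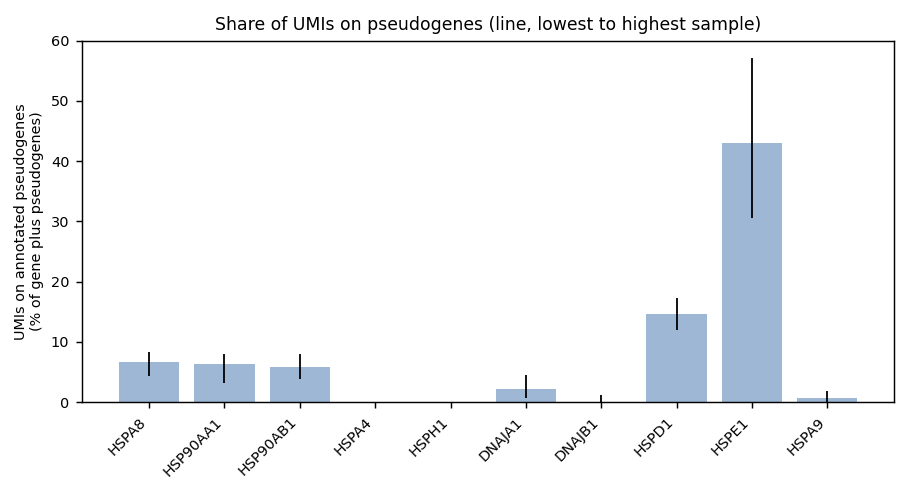
UMIs assigned to annotated pseudogenes as a percentage of the UMIs of each gene and its pseudogenes (vertical axis) for the 10 genes (horizontal axis), as a bar over all 31 samples with a line from the lowest to the highest sample. HSPE1 stands at 43.1% and HSPD1 at 14.6%, and the other 8 genes reach at most 6.67%.

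The rest of the chaperone system was read from 8 lists of 71 genes, of which 62 or 63 passed the filter on low counts. None of them was called by limma-voom in either EF1a/sh-XIAP comparison, with SFFV/sh-XIAP at day 4 or between days, and an unadjusted p under 0.05 was reached by 2 of 62 for late EF1a/sh-XIAP (4.62% of all genes), 3 of 63 for EF1a/sh-XIAP (4.5%) and 6 of 63 for SFFV/sh-XIAP (4.72%) at day 4, 5 of 62 for days 10 and 13 minus day 4 (6.36%) and 4 of 62 for day 13 minus day 10 (5.98%). Other tools were not read for these lists. Per doubling of total UMIs, DNAJC21, a J-domain protein of ribosome assembly, fell by 0.28 (SE 0.083, adjusted p = 0.16 by limma-voom) and was the only 1 called. For days 10 and 13 minus day 4, 39 of 62 were lower and 23 higher with a median of -0.03. Lower were 10 of 15 HSP90 co-chaperones, 12 of 16 J-domain proteins, 5 of 9 nucleotide exchange factors and adaptors, 3 of 4 heat shock factors, 2 of 2 other HSP90 and 1 of 2 small heat shock proteins, whereas higher were 5 of 9 mitochondrial folding factors and proteases and 3 of 5 other HSP70. With SFFV/sh-XIAP at day 4 the median was -0.0072, and with EF1a/sh-XIAP it was 0.03 at day 4 and 0.02 at the late days. In the comparisons that served for the choice, 33 of 62 were higher in late SFFV/sh-XIAP than in SFFV/sh-CTRL (median 0.04), and 40 of 62 were higher than the mean of the other constructs (median 0.07). Some genes induced by heat were counted little, a pick made after their values were seen. HSPA1A gave 38 UMIs over all samples and at most 9.52 CPM, HSPA1B 295 UMIs and at most 25.3 CPM. HSPA6 gave 2 UMIs and BAG3, a co-chaperone of HSP70, 8 UMIs. Others were counted more, with 1708 UMIs for DNAJB1 and 3468 UMIs, at 137 to 210 CPM, for the small heat shock protein HSPB1. Whether a heat shock response was present was not tested. HSF1, the factor that switches these genes on, was counted at 31.7 to 81.4 CPM.

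Across the 31 samples the genes whose log2 CPM ran most like that of HSPA8, among 1926 of at least 100 CPM, were ACTB (Pearson r = 0.726), CALR (0.678), MT-ND2 (0.674), HSP90B1 (0.654) and SERBP1 (0.630). They encode actin, an endoplasmic reticulum chaperone, a subunit of respiratory complex I, the endoplasmic reticulum HSP90 and an RNA-binding protein. HSPD1 ranked 9 with r = 0.598, HSP90AA1 38 and HSPE1 40, while DNAJA1 had r = 0.020. The samples share constructs, days and depth, and the late SFFV/sh-XIAP samples enter each value. After the mean of each construct and day was removed, the 45 pairs of the 10 genes had a median r of 0.13, from -0.48 (HSPA8 with DNAJA1) to 0.67 (HSPA4 with HSPE1), and 31 pairs were above 0.

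Heat shock factors bind repeats of the letters GAA in alternating direction, each 5 bases from the next. The window from 250 bases before to 50 bases after each start listed by RefSeq (GRCh38.p14) was searched for 3 such units, GAANNTTCNNGAA or its other strand TTCNNGAANNTTC, counting overlapping matches as 1 site. Such a site was found in 0.490% of 35116 windows and, for the 10 genes, in 5 of 16 windows. By gene it was in 5 of the 10 and in 0.608% of 27305 genes with a window. The genes were picked by name as heat shock proteins, and heat shock factors switch on many of these. A high share was thus partly built in, and nothing about these samples is read from it. The sites of the 5 genes that hold them are shown on the strand of the gene, with the match in capitals and up to 5 bases on either side.
HSPA8 far site: agcttGAAAGTTCCAGAAcgctg
HSPA8 near site: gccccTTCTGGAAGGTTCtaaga
HSP90AA1: ggttcTTCCGGAAGGTTCgggag
HSP90AB1 far site: gcaggTTCTGGAAGATTCatggg
HSP90AB1 near site: gattgTTCTGGAAGCTTCtggat
DNAJA1: gggcgGAACTTTCCAGAAcgctc
HSPD1: gcattTTCTGGAAAGTTCTGGAAccgag

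Counted from the listed start to the first base in capitals, the sites of HSPA8 lie at -230 and -55 (chr11:123062349-123062371 and chr11:123062174-123062196, minus strand). That of HSP90AA1 lies at -88 from 1 of its 2 listed starts (chr14:102087115-102087137, minus strand). HSP90AB1 has its sites at -165 and -112 from 1 of its 3 listed starts (chr6:44247773-44247795 and chr6:44247826-44247848, plus strand). The site of DNAJA1 begins at position 3 after the start (chr9:33025271-33025293, plus strand). The HSPD1 site is the longest, with 18 bases in capitals, at -245 from 1 of its 2 listed starts (chr2:197500063-197500090, minus strand). It is 289 bases away from the listed start of HSPE1, beyond the window of that gene. All 7 sites lie inside the spans that GENCODE gives the genes. The windows of HSPE1, HSPA4, HSPA9, HSPH1 and DNAJB1 held no such letters. The shorter form of 2 units was in 8 of the 16 windows against 13.5% of all windows, and in 7 of the 10 genes against 16.2% of all genes.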

How the data were processed

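Bulk RNA of 31 NALM-6 samples was sequenced with prime-seq, a 3′ protocol. Per the labels and the values, the deposited table holds raw UMI counts made by the authors for 30667 Ensembl genes, of which 911 had no UMI in any sample. The submitters' processing notes name STAR 2.6.0a and the builds hg38 (GRCh38) and mm10 (GRCm38). Neither the annotation nor the UMI counter is given in the sources used here. Symbols, types and positions came from GENCODE 29 on GRCh38, which names 29928 of the genes.

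Groups came from the sample labels. Genes above 1 CPM in at least 1/3 of the samples of a fit were tested with limma-voom (R 4.3.3, edgeR 4.0.16 with TMM, limma 3.58.1) with construct and, where days were pooled, day as terms, two-sided, with Benjamini-Hochberg adjustment over all genes and the study's adjusted p of at most 0.25. The fits held 21 samples for the late days, 10 for day 4 and 31 for time and depth. Intervals are 95% intervals of the moderated statistics. The procedure was checked on simulated counts with planted log2 changes of 1 up or down. These are larger than the differences of the 10 genes, so the check does not cover differences of that size. All 10 genes passed the filter. Of the 71 other chaperone genes, those called were to be named, at most 3 per direction, and the 5 genes most like HSPA8. The 10 genes and the lists were chosen with earlier results of these data known. Alternatives were edgeR, DESeq2 1.42.0, limma-trend (prior count 2), other scalings, no filter, total UMIs as a covariate, thinning, pseudogene counts added, a replicate block, each late day alone, an adjusted p of 0.05 and each sample left out. The fits without SFFV/sh-XIAP were added after the data were seen. Total counts per sample limit the precision, and all 26 pairs of replicates differed by more than counting noise, with a chi-square per gene of 1.07 to 2.43.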

Additional observations from a re-analysis of the deposited data

Results flagged for a closer look

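In 4 of the 40 groups of late samples examined, by gene and construct, 1 sample stood apart from the rest of its group. The measure is the gap to the nearest other sample over the range of the group, and chance flags about 1 in 20 groups. HSP90AB1 with EF1a/sh-XIAP had 962 CPM in day 13 replicate 1, above the next sample at 880.2 CPM (gap 0.886 of the range, n = 5). DNAJB1 had 111 CPM in EF1a/sh-CTRL day 13 replicate 1 (0.808, n = 6), and 105 CPM in EF1a/sh-XIAP day 10 replicate 2, above 78.3 CPM (0.773, n = 5). HSPE1 had 156 CPM in EF1a/sh-XIAP day 10 replicate 2, below 185 CPM (0.722, n = 5). EF1a/sh-XIAP day 10 replicate 2 is in 2 of the 4 cases, high for DNAJB1 and low for HSPE1.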

How the results depend on the processing

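Of the 6 comparisons other than the 2 of the choice, those of time and depth still hold the late SFFV/sh-XIAP samples. In these 6 no member was called in the main fits. Of 2060 log2 differences under an alternative 22 passed the threshold and 128 changed sign, 120 of them from a value within 1 SE of 0. The other 8 were not called: for day 13 minus day 10, HSP90AA1 (-0.0066) and HSPD1 (-0.0011) after thinning and HSPD1 (-0.019) without SFFV/sh-XIAP, and for the slope with depth, HSPA8 (-0.019) and HSP90AA1 (-0.011) with DESeq2, HSPA8 (-0.014) with DESeq2 size factors, and HSPA8 (-0.021) and HSP90AB1 (-0.013) without SFFV/sh-XIAP. In the 2 comparisons of the choice, which carry no test, 33 of 680 values changed sign and 13 moved by more than the spread between replicates. From at least 1 SE away from 0, those were HSPA9 (-0.012) after thinning and HSPH1 at day 13 alone (-0.15) and without SFFV/sh-CTRL day 10 replicate 2 (-0.024). The cause was not tested.

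None of the 10 genes was called under any alternative for late EF1a/sh-XIAP, for either construct at day 4 or for day 13 minus day 10. For days 10 and 13 minus day 4, 0 became 5 with no filter. It became 3 without SFFV/sh-XIAP (0.533% of all genes called) and 4 without it and with the covariate (1.03%). By edgeR (139 of 17839 genes called) or by DESeq2 (93 of 17839) it became 1 without SFFV/sh-XIAP. With all samples edgeR and DESeq2 gave 0. Leaving out each sample gave 0 to 1, HSP90AA1 being called without SFFV/sh-XIAP day 13 replicate 1. For the slope 0 became 1 with no TMM, 4 with no filter and 0 to 1 with each sample left out. With no filter the calls over all genes also rose steeply for both comparisons, as listed below, so nothing is read from these member counts. For late SFFV/sh-XIAP minus SFFV/sh-CTRL 1 became 0 with edgeR, DESeq2, limma-trend, DESeq2 size factors, the covariate, thinning, either day alone or an adjusted p of 0.05, and 0 to 2 with each sample left out. Against the mean of the other constructs 5 became 2 with edgeR, 1 with limma-trend, 3 with the covariate, 1 with thinning, 2 with day 10 alone, 2 at 0.05 and 4 to 5 with each sample left out.

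Counts over all genes moved more. For late EF1a/sh-XIAP 3 became 0 with DESeq2, limma-trend or thinning, 19 with no filter, 5 with pseudogene UMIs, 24 at day 10, 8 at day 13 and 0 to 7 with each sample left out. For SFFV/sh-XIAP at day 4 2 became 8 with edgeR, 0 with DESeq2, limma-trend, DESeq2 size factors or thinning, 6 with no TMM or pseudogene UMIs, 11 with no filter or the covariate and 0 to 12 with each sample left out. For EF1a/sh-XIAP at day 4 9 became 0 with edgeR, DESeq2, limma-trend or thinning, 4 with no TMM, 5 with DESeq2 size factors or at 0.05, 29 with no filter and 3 to 15 with each sample left out. For days 10 and 13 minus day 4 84 became 48 with limma-trend, 6009 with no filter, 136 with the covariate, 22 with thinning, 31 at 0.05, 183 without SFFV/sh-XIAP and with the covariate, 139 without it by edgeR and 54 to 100 with each sample left out. For day 13 minus day 10 4 became 1 with DESeq2, 9 with limma-trend, 27 with no filter, 40 with the covariate, 0 with thinning, 24 with pseudogene UMIs, 22 without SFFV/sh-XIAP and 1 to 10 with each sample left out. For the slope 314 became 130 with edgeR, 101 with DESeq2, 16193 with no filter, 82 at 0.05 and 195 to 431 with each sample left out. For late SFFV/sh-XIAP minus SFFV/sh-CTRL 14 became 48 with edgeR, 0 with DESeq2 or thinning, 5 with no TMM, 30 with DESeq2 size factors, 4 with no filter, 3 with the covariate, 2 at 0.05 and 2 to 45 with each sample left out. Against the mean of the other constructs 149 became 83 with DESeq2, 68 with limma-trend, 71 with the covariate, 22 with thinning, 98 at day 10, 95 at day 13, 41 at 0.05 and 55 to 220 with each sample left out.

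No pairing by replicate number was seen: deviations of 149 pairs with the same number had a mean correlation of -0.00055 and those of 290 pairs with different numbers 0.0003. These were taken over all genes passing the filter, where counting noise can hide a pairing, so it is not excluded. With a replicate block the counts over all genes were 0 for late EF1a/sh-XIAP, 25 and 5 for SFFV/sh-XIAP and EF1a/sh-XIAP at day 4, 189 for the slope and 7 for late SFFV/sh-XIAP minus SFFV/sh-CTRL, and HSPA8 was at 0.14 there. Depth limits HSPH1, DNAJB1, HSPA4 and HSPE1 most, and XIAP, with few UMIs, was described but not tested.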
